A study of Homo sapiens with 12 samples.

Results

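The 43 genes described here encode cyclins, kinases, kinetochore proteins and other proteins of G2 and mitosis, without the kinesins named KIF. They were chosen by function and matched by gene symbol, with no threshold, and with their responses to the drug in both lines already known from earlier results of these data. Calls and adjusted p-values for them therefore describe these libraries and are read beside the share of all genes called. All 43 were present among the 58216 genes of the counts table, and all 43 passed the filter on low counts that left 18035 genes. RNA sequencing was done on HCCC9810 and RBE, a pair of human intrahepatic cholangiocarcinoma lines (cancer of the bile ducts inside the liver), each of them a single cell line. The 4 groups were HCCC9810 control, HCCC9810 treated with 5 µM anlotinib for 24 h, RBE control and RBE treated in the same way, with 3 libraries in each, described by the submitters as biological replicates. Anlotinib is a small molecule that inhibits several receptor tyrosine kinases, among them those for VEGF, FGF and PDGF. All cultures shared a medium with 10% fetal bovine serum. The protocol states a final dimethyl sulfoxide concentration of 0.1% for the drug solution, and the sources used here do not say whether the controls received it.

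Entry into mitosis depends on CDK1 bound to cyclin A or cyclin B, which CDC25 phosphatases activate and which acts with the polo-like and aurora kinases. Chromosomes attach to the spindle through kinetochores built on CENPA chromatin, and the checkpoint kinases and MAD and BUB proteins hold back the anaphase-promoting complex (APC/C) until all are attached. CDC20 then activates the APC/C, which marks cyclin B and securin for destruction and so frees separase to cut cohesin. Transcripts of most of these genes are low in G1 and peak in G2 and mitosis, and many of their promoters are bound by the MuvB complex with RB-family proteins or with B-MYB and FOXM1. In tumours, several of them are used as a measure of proliferation.

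Promoters of 4 members are shown as examples from the different responses found. CDC20 and ESPL1 rose with anlotinib in HCCC9810 and fell in RBE, MKI67 was not called in HCCC9810 and fell in RBE, and TOP2A fell in both. The HCCC9810 call of ESPL1 was lost under 12 of 22 alternative fits, and the RBE call of CDC20 under 3 of 22, as given below. The sequences are from RefSeq (GRCh38.p14), written 5' to 3' on the strand of the gene. They cover chr1:43358805-43358954 on the plus strand for CDC20, which is -176 to -27 from the start, and chr12:53268149-53268298 on the plus strand for ESPL1, which is -150 to -1. They cover chr10:128126424-128126573 on the minus strand for MKI67, which is -150 to -1, and chr17:40417951-40418100 on the minus strand for TOP2A, which is -204 to -55. Capitals mark CCAAT or its reverse complement ATTGG, which is the letter pattern of the NF-Y site, and TTTGAA or its reverse complement TTCAAA, a form of the cell cycle homology region to which MuvB binds. In MKI67 a TTTGAA and an ATTGG share 1 base.
CDC20: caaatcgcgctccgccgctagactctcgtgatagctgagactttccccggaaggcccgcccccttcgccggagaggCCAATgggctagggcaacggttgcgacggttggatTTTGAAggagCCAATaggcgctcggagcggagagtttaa
ESPL1: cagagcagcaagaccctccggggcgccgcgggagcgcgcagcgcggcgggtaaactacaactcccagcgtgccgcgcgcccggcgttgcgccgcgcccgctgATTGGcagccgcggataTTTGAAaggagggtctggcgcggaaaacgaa
MKI67: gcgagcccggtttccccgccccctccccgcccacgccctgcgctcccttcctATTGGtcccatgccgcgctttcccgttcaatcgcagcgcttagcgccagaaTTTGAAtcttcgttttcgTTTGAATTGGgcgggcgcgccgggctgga
TOP2A: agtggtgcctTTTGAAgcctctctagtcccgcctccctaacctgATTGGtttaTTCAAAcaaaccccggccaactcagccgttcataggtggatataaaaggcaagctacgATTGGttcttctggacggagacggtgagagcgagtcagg

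Windows from 250 bases before to 50 bases after a RefSeq start were available for 34 of the 43 members, with 44 windows in all, and were set beside all 34943 windows. There was no entry for TTK, TROAP, AURKA, BUB3, TPX2, FOXM1, UBE2C, BIRC5 or PIMREG. On either strand, CCAAT was found at least once in 75% of the members' windows and in 34.6% of all windows. CCAAT was found 2 or more times in 47.7% of the members' windows and in 10.8% of all. TTTGAA or TTCGAA, on either strand, was found in 68.2% of the members' windows and in 16.4% of all, and both motif types occurred together in 56.8% and 6.4%. Of the members with a window, 8 of the 12 that rose in HCCC9810 carried both types, as did 4 of the 4 that fell there (CDK1, INCENP, SPC25 and TOP2A) and 11 of the 18 that were not called. Thus, the letters were present in members of every response class. The windows of CDC20, ESPL1, MKI67 and TOP2A each held both types, whereas CCNA2, CCNB1, PTTG1 and BUB1B rose in HCCC9810 without holding both. A match of letters is a description of the window and not evidence of binding.

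Libraries are named by the number in their column header, which is 7 to 9 for HCCC9810 control, 10 to 12 for HCCC9810 anlotinib, 1 to 3 for RBE control and 4 to 6 for RBE anlotinib, and values are always listed in this order. The header words (line, and control or treated) gave the groups, but within each line the sample titles give the same numbers to the opposite treatment. If the numbers were followed instead of the words, every response below would change sign and the comparison of untreated lines would become a comparison of treated lines. Total counts ran from 15215193 to 22567927 in HCCC9810 and from 17779598 to 40963529 in RBE. Library 7, an HCCC9810 control, stood apart from libraries 8 and 9 in AT-rich members, as with CENPF at 54.2 CPM (counts scaled to the library size, TMM normalised) against 177 and 180 CPM, so results without it are given where they differ. Library 6 was the lowest of the treated RBE libraries in several of the same genes, as with TOP2A at 125 CPM against 231 and 219 CPM. So was library 10 among the treated HCCC9810 libraries, as with ASPM at 29.3 CPM against 83.8 and 64.6 CPM. Markers listed for other cell types were low. The 5 hepatocyte markers summed to between 86.2 and 176 CPM, the 4 endothelial markers to between 4.11 and 34.9 CPM, the 5 leukocyte markers summed to between 3.89 and 60.3 CPM and the 5 fibroblast markers to between 14.9 and 74.4 CPM, with MS4A1 at 0 in both HCCC9810 groups and CD3E at 0 in treated HCCC9810. None of the 7 biliary and epithelial markers was at 0, and their sum went from 11421 to 14954 CPM in HCCC9810 controls to 6291 to 7403 CPM with anlotinib, and from 5983 to 6622 CPM to 6956 to 8092 CPM in RBE.

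Of the 43 members, 18 were called in opposite directions in the 2 lines. The share of all genes called in opposite directions was not computed, and the shares that follow are for single comparisons. In HCCC9810, 18 of 43 were called higher with anlotinib (edgeR quasi-likelihood test, Benjamini-Hochberg adjusted p below 0.05), where 11.1% of all genes tested were called higher, and 5 were called lower, where 12.8% of all genes were. In RBE, 36 of 43 were called lower, where 8.32% of all genes were, and 0 were called higher, where 9.37% of all genes were. No member had a positive fold change in RBE, so none was higher at an unadjusted p below 0.05 either, and DESeq2 also called 0 higher. The median log2 fold change of the members was 0.36 in HCCC9810, beside -0.05 over all genes tested, and -0.97 in RBE, beside 0.02 over all. The response in RBE minus that in HCCC9810, tested as the interaction of line and treatment, was called below 0 for 32 members, where 7.66% of all genes were, and above 0 for 0 members, where 8.92% of all genes were. Its median was -1.48 for the members and 0.09 over all genes. CDK1 and TOP2A were the only members with a difference above 0, and neither reached an unadjusted p of 0.05, while DESeq2 also called 0 above 0.

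In HCCC9810 the members together made up 0.323%, 0.507% and 0.488% of all counts in the controls and 0.552%, 0.542% and 0.636% with anlotinib. In RBE they made up 0.595%, 0.621% and 0.553% of counts in the controls and 0.329%, 0.325% and 0.282% with anlotinib. The treated libraries were all above the controls in HCCC9810 and all below them in RBE. In bulk RNA, fewer or more cells in G2 and mitosis and less or more of these transcripts per cell cannot be told apart. The joint classes that follow have no share of all genes beside them. By call, 18 members rose in HCCC9810 and fell in RBE, and the difference was called for all 18. A further 5 fell in both lines (CDK1, TOP2A, UBE2C, SPC25 and INCENP). The 13 that were not called in HCCC9810 and fell in RBE were CDC25B, CDC25C, AURKB, TTK, BUB3, CENPI, NDC80, NUF2, SPC24, NUSAP1, DLGAP5, MKI67 and CDCA3, and the difference was called for 11 of them, the exceptions being TTK and CENPI. The 7 called in neither line were CENPE, CENPF, PRC1, ASPM, HMMR, ANLN and ECT2.

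**Figure D1:**
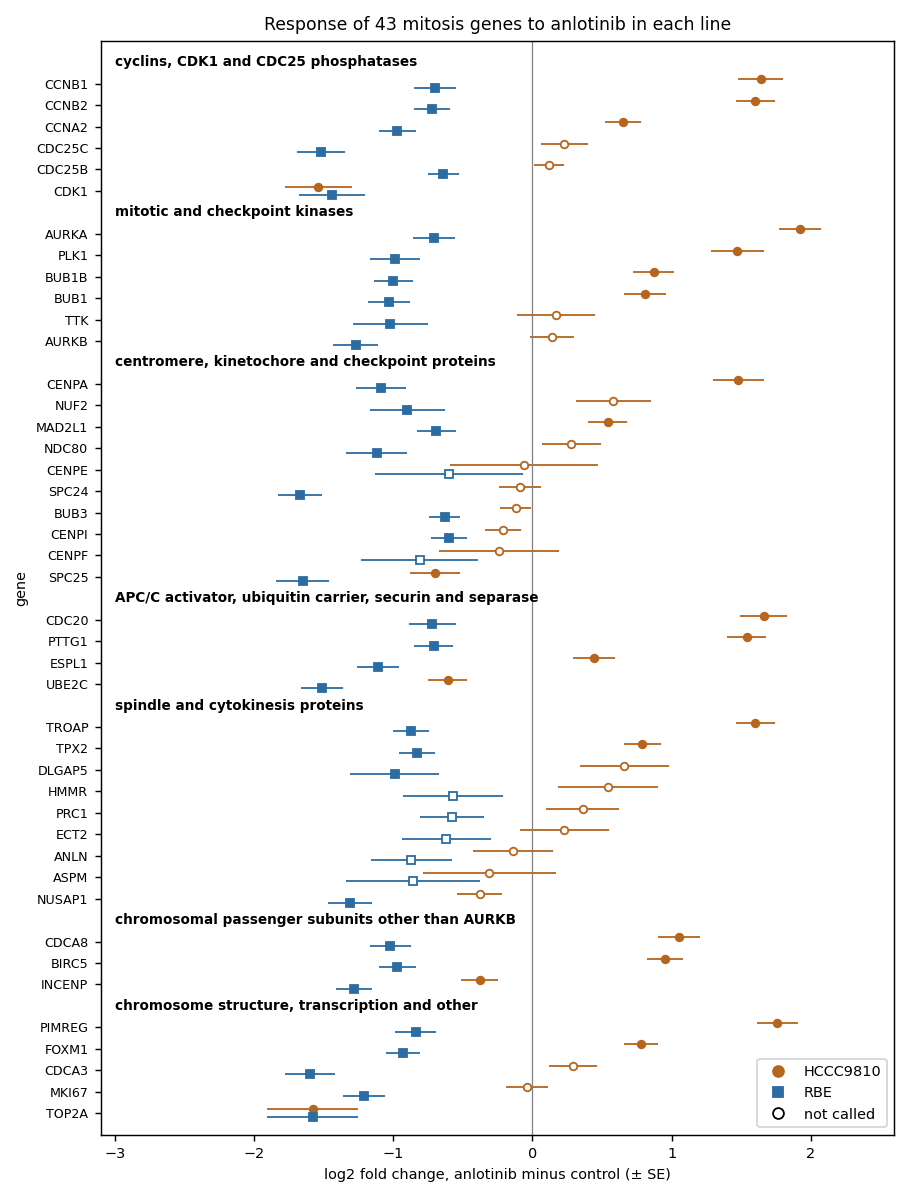
Each row is a gene, grouped by role, and the horizontal axis is the log2 fold change with anlotinib in HCCC9810 (circles) and RBE (squares), with bars of 1 SE and open symbols where the change was not called. The RBE symbols all lie between -1.67 and -0.57, and the HCCC9810 symbols run from -1.58 (TOP2A) to 1.92 (AURKA).

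The cyclins split from their kinase in HCCC9810. CCNB1 (cyclin B1, the main mitotic partner of CDK1; ENSG00000134057, chr5:69167010-69178245, plus strand, GRCh38) was at 81.1, 114 and 108 CPM in HCCC9810 controls and at 299, 268 and 380 CPM with anlotinib. In RBE it went from 268, 266 and 290 CPM to 156, 150 and 201 CPM. The treated libraries were thus all higher than the controls in HCCC9810 and all lower in RBE, with no overlap. CCNB1 rose by a log2 fold change of 1.64 ± 0.16 (SE) in HCCC9810 (edgeR adjusted p = 8.35e-06) and fell by 0.70 ± 0.15 on the log2 scale in RBE (edgeR adjusted p = 0.00556). CCNB2 (cyclin B2, a second mitotic partner of CDK1) was at 40.6, 48.7 and 46.6 CPM in HCCC9810 controls and 133, 117 and 161 CPM in treated cells, and went from 106, 103 and 109 CPM to 59.3, 58.8 and 75.6 CPM in RBE. It too showed no overlap in either line, and its log2 fold changes were 1.60 ± 0.14 (edgeR adjusted p = 2.23e-06) and -0.72 ± 0.13 (edgeR adjusted p = 0.00155). CCNA2 (cyclin A2, which acts in S phase and in G2) was at 62.4, 81.6 and 79.8 CPM in HCCC9810 controls and 113, 101 and 138 CPM with anlotinib, and went from 72.3, 73.8 and 69.7 CPM to 37, 35 and 38 CPM in RBE. Its rise in HCCC9810 was smaller than those of the B cyclins, at 0.65 ± 0.13 (edgeR adjusted p = 0.00232), and its change in RBE was -0.97 ± 0.13 (edgeR adjusted p = 0.000133).

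CDK1 (the kinase itself; ENSG00000170312, chr10:60778331-60794852, plus strand) was at 62.8, 117 and 111 CPM in HCCC9810 controls and at 32, 31.5 and 36.6 CPM with anlotinib. In RBE it was at 111, 125 and 86.8 CPM and then at 46.7, 43.7 and 27.8 CPM. Every treated library was below every control in both lines. CDK1 fell by 1.54 ± 0.24 on the log2 scale in HCCC9810 (edgeR adjusted p = 0.000906) and by 1.44 ± 0.24 in RBE (edgeR adjusted p = 0.00123), and the difference of 0.10 ± 0.33 was not called. The CDC25 phosphatases, which remove the inhibitory phosphates from CDK1, were not called in HCCC9810, where CDC25B had a log2 fold change of 0.12 ± 0.11 and CDC25C of 0.23 ± 0.17. Both fell in RBE, CDC25B by 0.64 ± 0.11 and CDC25C by 1.52 ± 0.17 on the log2 scale (edgeR adjusted p = 0.00111 and 2.81e-05), and the difference between lines was called for both. CDC25C was low, at 7.32 to 24.3 CPM over the 12 libraries, and CDC25B was between 331 and 417 CPM in HCCC9810 and between 90.4 and 162 CPM in RBE. Of the 6 genes of this group, 3 rose and 1 fell in HCCC9810, beside 11.1% and 12.8% of all genes. All 6 fell in RBE, beside 8.32% of all genes.

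**Figure D2:**
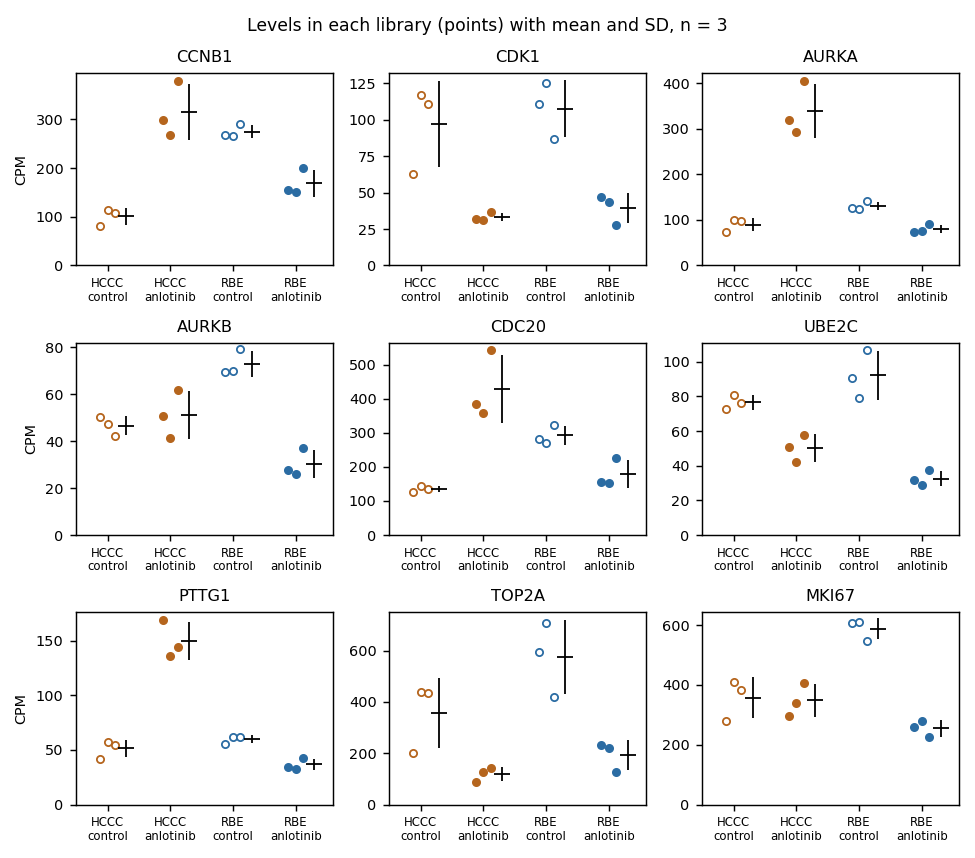
Levels of 9 members in CPM (vertical axis, linear from 0) in each library of the 4 groups, where HCCC is HCCC9810, open points are controls, filled points are treated, and the cross bar with a vertical line is the mean ± SD (n = 3). CCNB1, AURKA, CDC20 and PTTG1 are higher in the treated HCCC9810 libraries and lower in the treated RBE libraries, and CDK1, UBE2C and TOP2A are lower in both.

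Among the 6 mitotic and checkpoint kinases, 4 rose in HCCC9810, beside 11.1% of all genes, while AURKB and TTK were not called. All 6 fell in RBE, beside 8.32% of all genes. AURKA (aurora A, a centrosome and spindle pole kinase; ENSG00000087586, chr20:56369389-56392337, minus strand) was at 72.4, 99.7 and 96.7 CPM in HCCC9810 controls and 319, 292 and 405 CPM with anlotinib. It was at 127, 123 and 141 CPM in RBE controls and 72.8, 76.7 and 90.4 CPM in treated RBE cells. Neither line showed overlap, and the treated HCCC9810 values were above all other libraries of the series. Its log2 fold changes were 1.92 ± 0.15 in HCCC9810 (edgeR adjusted p = 1.14e-06) and -0.71 ± 0.15 in RBE (edgeR adjusted p = 0.0035), and the difference of -2.62 ± 0.21 was the farthest from 0 of the 43. PLK1 (polo-like kinase 1, which acts on centrosomes, kinetochores and CDC25) went from 64.4, 101 and 96.5 CPM to 231, 196 and 298 CPM in HCCC9810 and from 172, 160 and 190 CPM to 79.4, 79.1 and 105 CPM in RBE. Its log2 fold changes were 1.47 ± 0.19 (edgeR adjusted p = 0.000113) and -0.99 ± 0.18 (edgeR adjusted p = 0.00193), with no overlap in either line. In PLK1, 12.5% of exon bases are shared with AC008870.3 on the opposite strand, so some of its counts could belong to that gene.

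The checkpoint kinase BUB1, which marks the centromere and recruits other checkpoint proteins, was at 56.6, 85.2 and 82.4 CPM in HCCC9810 controls and 124, 113 and 156 CPM with anlotinib, and at 114, 123 and 110 CPM and then 60.3, 56.8 and 51.8 CPM in RBE. Its relative BUB1B (BUBR1, part of the complex that inhibits CDC20) was at 35, 49.7 and 48.6 CPM and then 78.1, 68.9 and 96.2 CPM in HCCC9810, and at 109, 117 and 101 CPM and then 54.6, 56.7 and 51.6 CPM in RBE. Both genes separated treated from control libraries completely in both lines, upwards in HCCC9810 and downwards in RBE. BUB1 changed by 0.81 ± 0.15 and -1.03 ± 0.15 on the log2 scale (edgeR adjusted p = 0.00182 and 0.000291), and BUB1B by 0.87 ± 0.15 and -1.0 ± 0.14 (edgeR adjusted p = 0.000836 and 0.00025). BUB1B shares 10.2% of its exon bases with the read-through gene BUB1B-PAK6 on the same strand. AURKB (aurora B, the kinase of the chromosomal passenger complex) behaved differently from AURKA in HCCC9810, with overlapping ranges of 42.4 to 50.3 CPM in controls and 41.4 to 61.6 CPM with anlotinib and a log2 fold change of 0.14 ± 0.16 that was not called. In RBE, AURKB fell by 1.27 ± 0.16 on the log2 scale (edgeR adjusted p = 7.13e-05). TTK (MPS1, the kinase that starts checkpoint signalling) was not called in HCCC9810, at 0.17 ± 0.28, and fell by 1.02 ± 0.27 in RBE (edgeR adjusted p = 0.0211), a call that was lost without library 1 or library 2 (edgeR adjusted p of 0.0526 to 0.0655), under library totals (0.0502) and on log2(RPKM + 0.1) (0.058). The difference for TTK, -1.19 ± 0.39, just missed the threshold (edgeR adjusted p = 0.0542). It was called without library 7 or library 10 (edgeR adjusted p of 0.0344 to 0.0436), and with all libraries under RLE factors (0.0401), no filter (6.35e-06), GC and length offsets (0.00097) and DESeq2 (0.0103).

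Of 10 centromere and kinetochore proteins, 2 were higher, 1 lower and 7 not called in HCCC9810, beside 11.1% and 12.8% of all genes. With GC and length offsets 4 were higher and 0 lower, beside 17.0% and 13.0% of all genes. In RBE 8 of 10 fell, beside 8.32% of all genes. CENPA, the histone H3 variant that marks the centromere, was at 14.8, 27.1 and 24 CPM in HCCC9810 controls and 68.1, 53 and 63.1 CPM with anlotinib, and went from 29.2, 24 and 30.5 CPM to 13.3, 13.3 and 12.7 CPM in RBE. There was no overlap in either line, and the log2 fold changes were 1.48 ± 0.18 (edgeR adjusted p = 6.76e-05) and -1.09 ± 0.18 (edgeR adjusted p = 0.000707). MAD2L1 (MAD2, the checkpoint protein that binds CDC20) was at 44.5, 53.7 and 55.8 CPM and then 65.2, 79 and 79.6 CPM in HCCC9810, and at 45, 49.2 and 37.1 CPM and then 28.9, 28.1 and 24.1 CPM in RBE. MAD2L1 changed by 0.54 ± 0.14 in HCCC9810 and -0.69 ± 0.14 in RBE on the log2 scale (edgeR adjusted p = 0.0107 and 0.00257), again without overlap. BUB3, the partner that brings BUB1 and BUBR1 to the kinetochore, was not called in HCCC9810 (-0.12 ± 0.11) and fell by 0.63 ± 0.11 in RBE (edgeR adjusted p = 0.00107). The difference for BUB3, -0.51 ± 0.15, was called with all libraries (edgeR adjusted p = 0.0367) and was lost when any of libraries 1, 2, 3, 4, 5, 8, 9 or 12 was left out (edgeR adjusted p of 0.0716 to 0.129).

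The 4 subunits of the NDC80 complex, the microtubule-binding rod of the kinetochore, were all lower in RBE and differed among themselves in HCCC9810. SPC24 was at 61.8, 58.2 and 56.3 CPM in HCCC9810 controls and 61, 40.3 and 63.9 CPM with anlotinib, and went from 60.2, 54.4 and 65.2 CPM to 19.6, 16.6 and 20.3 CPM in RBE. The HCCC9810 values overlapped and gave -0.09 ± 0.15, which was not called, and the RBE values did not overlap and gave -1.67 ± 0.16 (edgeR adjusted p = 5.54e-06), the lowest RBE value of the 43. SPC25 fell in both lines, by 0.70 ± 0.18 in HCCC9810 and 1.65 ± 0.19 in RBE (edgeR adjusted p = 0.0125 and 3.65e-05). Its difference of -0.95 ± 0.26 (edgeR adjusted p = 0.0228) was lost without library 3, 4, 5 or 10 (edgeR adjusted p of 0.0531 to 0.0652), and with all libraries under library totals (0.0529) and both RPKM fits (0.112 and 0.0824). NDC80 and NUF2, the subunits that contact the microtubule, were not called in HCCC9810, at 0.28 ± 0.21 and 0.58 ± 0.27 (NUF2 was called at 0.62 with no filter on low counts and at 0.87 with GC and length offsets), and fell in RBE by 1.12 ± 0.22 and 0.90 ± 0.27 (edgeR adjusted p = 0.00323 and 0.0359). The RBE call of NUF2 was lost without any of libraries 1, 2, 4, 5 and 6 (edgeR adjusted p of 0.0577 to 0.0948), and with all libraries under library totals (0.0766) and both RPKM fits (0.08 and 0.0886). CENPI, a subunit of the constitutive centromere network, was at -0.21 ± 0.13 in HCCC9810, not called, and fell by 0.60 ± 0.13 in RBE (edgeR adjusted p = 0.00466). The large kinetochore proteins CENPE, a kinesin-like motor, and CENPF were called in neither line, with -0.06 ± 0.53 and -0.24 ± 0.43 in HCCC9810 and -0.60 ± 0.53 and -0.81 ± 0.42 in RBE. Their standard errors were the widest of the group, and CENPE ranged from 7.05 to 34.9 CPM among the HCCC9810 controls alone.

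All 4 genes of the APC/C switch were called in HCCC9810, 3 higher and 1 lower, beside 11.1% and 12.8% of all genes. All 4 fell in RBE, beside 8.32% of all genes. CDC20, the activator of the APC/C in mitosis, was at 127, 145 and 135 CPM in HCCC9810 controls and 384, 357 and 543 CPM with anlotinib, and went from 282, 271 and 324 CPM to 155, 153 and 225 CPM in RBE. There was no overlap in either line. The log2 fold changes were 1.66 ± 0.17 in HCCC9810 (edgeR adjusted p = 1.86e-05) and -0.72 ± 0.17 in RBE (edgeR adjusted p = 0.00816), and the RBE call was lost without library 3, 4 or 5 (edgeR adjusted p of 0.0503 to 0.0559). PTTG1 (securin, the inhibitor of separase and a target of the APC/C) was at 42.1, 57.3 and 54.6 CPM and then 169, 136 and 144 CPM in HCCC9810, and at 55.8, 61.8 and 61.8 CPM and then 34.6, 32.7 and 42.7 CPM in RBE. PTTG1 changed by 1.54 ± 0.14 and -0.71 ± 0.14 on the log2 scale (edgeR adjusted p = 4.17e-06 and 0.00238), with no overlap in either line. ESPL1 (separase, the protease that cuts cohesin) was at 73, 74.7 and 76.6 CPM and then 99.1, 78.7 and 126 CPM in HCCC9810, and at 125, 110 and 136 CPM and then 53.2, 56 and 63.2 CPM in RBE. The lowest treated HCCC9810 library of ESPL1 was just above the highest control. Its rise of 0.44 ± 0.15 (edgeR adjusted p = 0.0407) was lost under library totals (0.0596), both RPKM fits (0.0903 and 0.0857) and the 6 HCCC9810 libraries alone (0.0627), and without any of libraries 1, 5, 7, 8, 9, 10 and 12 (log2 fold changes of 0.26 to 0.48, edgeR adjusted p of 0.0506 to 0.221), and its change in RBE was -1.11 ± 0.15 (edgeR adjusted p = 0.000124).

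UBE2C, the ubiquitin carrier that works with the APC/C, went the other way from CDC20 in HCCC9810, from 72.5, 80.9 and 76.3 CPM to 50.9, 41.9 and 57.9 CPM. In RBE it went from 90.7, 78.8 and 107 CPM to 31.6, 28.8 and 37.4 CPM. The treated libraries were lower than the controls in both lines. UBE2C fell by 0.61 ± 0.14 in HCCC9810 (edgeR adjusted p = 0.00761) and by 1.51 ± 0.15 in RBE (edgeR adjusted p = 7.16e-06), and the difference of -0.90 ± 0.20 was called (edgeR adjusted p = 0.00916).

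Among 9 spindle and cytokinesis proteins, 2 rose and 7 were not called in HCCC9810, 4 fell in RBE, and the difference was below 0 for 4. The shares of all genes were 11.1% higher in HCCC9810, 8.32% lower in RBE and 7.66% below 0 for the difference. With GC and length offsets the counts were 5 higher in HCCC9810, 7 lower in RBE and 8 below 0 for the difference. The shares of all genes were then 17.0%, 14.7% and 15.2%. TROAP (trophinin-associated protein, a spindle pole protein) was at 34.7, 44.2 and 41.1 CPM in HCCC9810 controls and 118, 104 and 143 CPM with anlotinib, and went from 64.2, 55.4 and 66 CPM to 31.7, 32.8 and 37 CPM in RBE. TROAP changed by 1.60 ± 0.14 in HCCC9810 and -0.87 ± 0.13 in RBE on the log2 scale (edgeR adjusted p = 2.23e-06 and 0.000396), and its groups did not overlap. TPX2, the protein that activates AURKA on spindle microtubules, was at 235, 325 and 309 CPM and then 557, 431 and 517 CPM in HCCC9810, and at 361, 331 and 395 CPM and then 200, 202 and 211 CPM in RBE. The groups of TPX2 did not overlap either, and its log2 fold changes were 0.79 ± 0.13 (edgeR adjusted p = 0.000792) and -0.83 ± 0.13 (edgeR adjusted p = 0.000552). NUSAP1, which stabilises spindle microtubules near chromosomes, was not called in HCCC9810 (-0.38 ± 0.16, called without library 12 at -0.54 with an edgeR adjusted p of 0.0291) and fell by 1.31 ± 0.16 in RBE (edgeR adjusted p = 5.13e-05). It shares 62.2% of its exon bases with AC087721.2 on the same strand, so its counts may be incomplete. DLGAP5 (HURP, which bundles spindle fibres) was not called in HCCC9810 at 0.66 ± 0.32 and fell by 0.99 ± 0.32 in RBE at an edgeR adjusted p of 0.0489. That call was lost without any of libraries 1, 2, 4, 5, 6, 8, 9, 11 and 12 (edgeR adjusted p of 0.051 to 0.14), under library totals (0.084) and in both RPKM fits (0.0974 and 0.102). The difference for DLGAP5 of -1.66 ± 0.45 was lost without library 1, 5 or 12 (edgeR adjusted p of 0.053 to 0.0576) and under library totals (0.0523).

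The other 5 genes of this group were called in neither line with TMM scaling and all libraries, and all 5 were below 0 in RBE. HMMR, a microtubule-binding protein of the spindle, had log2 fold changes of 0.54 ± 0.36 in HCCC9810 and -0.57 ± 0.36 in RBE. ECT2, the exchange factor that activates RhoA for cytokinesis, had 0.23 ± 0.32 and -0.62 ± 0.32, and ASPM, a spindle pole protein, had -0.31 ± 0.48 and -0.86 ± 0.48. These 3 genes are AT-rich and spread widely among replicates, ASPM for example at 28.1, 96.7 and 95.6 CPM in the HCCC9810 controls. ANLN, the scaffold of the contractile ring, had -0.14 ± 0.29 and -0.87 ± 0.29, and its RBE value was near the threshold (edgeR adjusted p = 0.0588). It was called without library 7 or 10 (log2 fold change -0.86 in each, edgeR adjusted p of 0.00857 to 0.0448), and with all libraries under RLE factors (0.0492), GC and length offsets (0.00269) and DESeq2 (0.00993), and in the 6 RBE libraries alone (0.0231). PRC1, the bundler of the central spindle, had 0.36 ± 0.26 and -0.58 ± 0.23. It was at only 1.83 to 3.76 CPM over the 12 libraries and shares 58.4% of its exon bases with AC068831.7 on the same strand, so the level of the gene itself is uncertain. Without library 7, PRC1 was called in HCCC9810 (0.71, edgeR adjusted p = 0.039) and in RBE (-0.57, edgeR adjusted p = 0.0433; also 0.0431 with GC and length offsets and 0.0469 in the 6 RBE libraries alone), and its difference was called without library 6 or 7 (-1.29 to -1.01, edgeR adjusted p of 0.0105 to 0.0499).

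The subunits of the chromosomal passenger complex, which corrects attachments and guides cytokinesis with AURKB, did not share a direction in HCCC9810. BIRC5 (survivin) was at 147, 171 and 165 CPM in HCCC9810 controls and 339, 260 and 332 CPM with anlotinib, and went from 216, 187 and 252 CPM to 109, 104 and 122 CPM in RBE. CDCA8 (borealin) was at 53.2, 62.9 and 54.9 CPM and then 114, 94.5 and 147 CPM in HCCC9810, and at 91.1, 86.4 and 99.9 CPM and then 42.1, 41 and 54.3 CPM in RBE. Both were higher in every treated HCCC9810 library and lower in every treated RBE library than in the controls. BIRC5 changed by 0.95 ± 0.13 and -0.97 ± 0.13 on the log2 scale (edgeR adjusted p = 0.000201 and 0.000168), and CDCA8 by 1.05 ± 0.15 and -1.02 ± 0.15 (edgeR adjusted p = 0.000284 and 0.000362). INCENP, the scaffold to which the others bind, was at 105, 122 and 117 CPM and then 88.1, 73.5 and 103 CPM in HCCC9810, and at 137, 116 and 142 CPM and then 51.1, 54.8 and 57.1 CPM in RBE. The HCCC9810 ranges were separated by a narrow gap and the RBE ranges by a wide one. INCENP fell by 1.28 ± 0.13 in RBE (edgeR adjusted p = 1e-05) and by 0.38 ± 0.13 in HCCC9810 (edgeR adjusted p = 0.04), and the HCCC9810 call was lost without any of libraries 1, 3, 4, 5, 8, 9, 10 and 11 (edgeR adjusted p of 0.052 to 0.169). With no library left out it was also lost under RLE factors (0.0731), no filter (0.087), DESeq2 (0.0651) and the 6 HCCC9810 libraries alone (0.0549), so its place among the 5 that fell in both lines rests on the chosen settings.

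The remaining 5 members are the chromosome proteins TOP2A and MKI67, the transcription factor FOXM1, and CDCA3 and PIMREG. TOP2A (topoisomerase II alpha, which untangles sister chromatids; ENSG00000131747, chr17:40388516-40417950, minus strand) was at 199, 438 and 434 CPM in HCCC9810 controls and 88, 128 and 141 CPM with anlotinib, and went from 594, 706 and 420 CPM to 231, 219 and 125 CPM in RBE. Treated libraries were lower in both lines, with no overlap, although the controls spread widely. TOP2A fell by 1.58 ± 0.33 in each line (edgeR adjusted p = 0.0057 in HCCC9810 and 0.00615 in RBE), and the difference of 0.01 ± 0.46 was not called. MKI67 (Ki-67, a coat of mitotic chromosomes used in pathology as a proliferation marker; ENSG00000148773, chr10:128096659-128126385, minus strand) was at 280, 410 and 382 CPM in HCCC9810 controls and 297, 341 and 407 CPM with anlotinib. It was at 606, 610 and 547 CPM in RBE controls and 260, 278 and 225 CPM in treated RBE cells. The HCCC9810 groups overlapped almost completely and the RBE groups were far apart. MKI67 had a log2 fold change of -0.04 ± 0.15 in HCCC9810, not called, and fell by 1.21 ± 0.15 in RBE (edgeR adjusted p = 7.64e-05), with a difference of -1.17 ± 0.21 (edgeR adjusted p = 0.00231).

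FOXM1, a transcription factor that drives G2 and mitosis genes, was at 212, 231 and 222 CPM and then 384, 322 and 431 CPM in HCCC9810, and at 170, 144 and 181 CPM and then 82.1, 83 and 96 CPM in RBE. PIMREG, a nuclear protein of mitotic cells that interacts with CALM, was at 35.3, 43.3 and 44.1 CPM and then 151, 116 and 148 CPM in HCCC9810, and at 37.3, 28.5 and 41.2 CPM and then 18.6, 20.7 and 20.5 CPM in RBE. Both genes were higher in every treated HCCC9810 library and lower in every treated RBE library. FOXM1 changed by 0.78 ± 0.12 and -0.93 ± 0.12 on the log2 scale (edgeR adjusted p = 0.000536 and 0.000142), and 15.9% of its exon bases are shared with ITFG2 on the opposite strand. PIMREG changed by 1.76 ± 0.15 and -0.84 ± 0.15 (edgeR adjusted p = 2.23e-06 and 0.00114), the second largest rise after AURKA. CDCA3, known from frog egg extracts as a factor in the destruction of the CDK1 inhibitor WEE1, was not called in HCCC9810 at 0.29 ± 0.17 (called without library 11 at 0.50 with an edgeR adjusted p of 0.0251) and fell by 1.60 ± 0.18 in RBE (edgeR adjusted p = 2.79e-05).

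Ratios of RPKM (reads scaled to transcript length and library total), taken within a library, show how partners moved against each other. They carry no test and their spread is the SD over 3 libraries. The ratio of CCNB1 to CDK1 was 1.66 ± 0.281 in HCCC9810 controls and 14.5 ± 1.45 with anlotinib, and 4.04 ± 0.968 and 7.18 ± 3.41 in RBE. The treated RBE mean rests on library 6, at 11.1, while libraries 4 and 5 were at 5.14 and 5.29 against a highest control of 5.13. The ratio of CCNB1 to CCNB2 stayed within 2.19 to 2.91 over the 12 libraries, so the B cyclins moved together. AURKA to AURKB went from 1.49 ± 0.34 to 5.09 ± 0.297 in HCCC9810 and from 1.37 ± 0.028 to 2.04 ± 0.197 in RBE. CDC20 to UBE2C went from 1.12 ± 0.0154 to 5.35 ± 0.579 in HCCC9810 and from 2.01 ± 0.143 to 3.41 ± 0.354 in RBE. In both pairs the treated libraries were above all controls of the same line, and the treated values of HCCC9810 were above those of RBE. The ratio of securin to separase, PTTG1 to ESPL1, went from 3.03 ± 0.437 to 6.75 ± 1.48 in HCCC9810 and from 2.15 ± 0.284 to 2.81 ± 0.208 in RBE. BIRC5 to INCENP went from 1.65 ± 0.0119 to 4.15 ± 0.365 in HCCC9810 and from 1.94 ± 0.124 to 2.41 ± 0.158 in RBE, and CDCA8 to INCENP from 0.9 ± 0.0444 to 2.42 ± 0.144 and from 1.28 ± 0.0765 to 1.52 ± 0.185. TOP2A to MKI67 went down in HCCC9810, from 1.93 ± 0.456 to 0.675 ± 0.0808, and was 1.93 ± 0.388 and 1.48 ± 0.342 in RBE, where the groups overlapped. The kinetochore pair NUF2 to NDC80 differed more between lines than with treatment, at 0.578 ± 0.0643 and 0.728 ± 0.0278 in HCCC9810 and 1.65 ± 0.013 and 1.91 ± 0.133 in RBE.

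**Figure D3:**
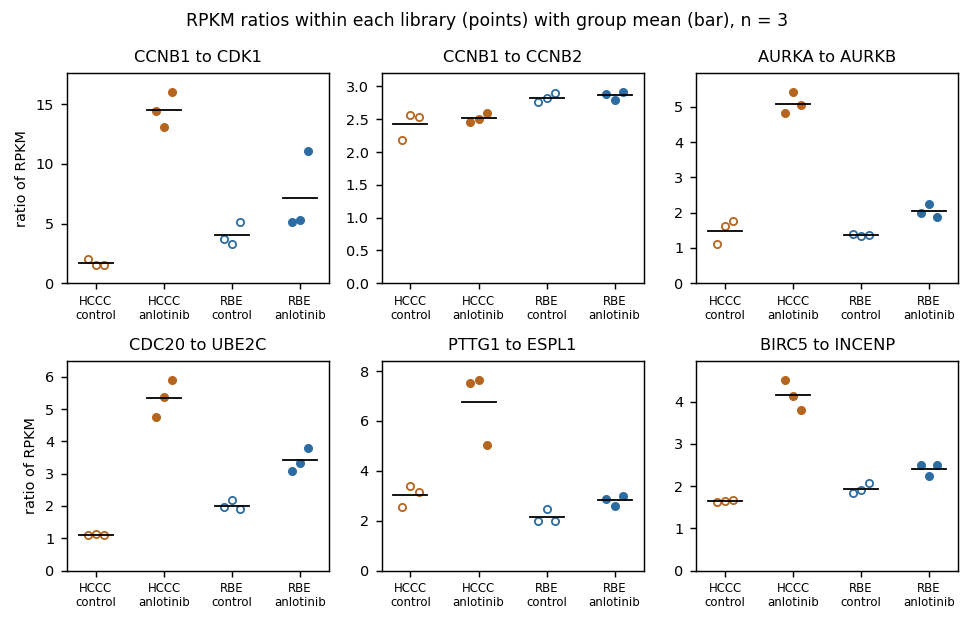
Ratio of the RPKM of 6 pairs of members (vertical axis, linear from 0) in each library of the 4 groups, where HCCC is HCCC9810, open points are controls, filled points are treated and the bar is the group mean (n = 3). CCNB1 to CCNB2 is level across groups, and the other 5 ratios have their highest values in treated HCCC9810.

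Before treatment the lines differed, and the comparison of controls asks which members start at another level. It shares its libraries with the responses above, so the values are given side by side only. In RBE controls against HCCC9810 controls, 20 of 43 members were called higher, where 31.5% of all genes were, and 5 were called lower, where 32.6% of all genes were. The median log2 difference, RBE minus HCCC9810, was 0.40 for the members and -0.01 over all genes. All 6 mitotic and checkpoint kinases were higher in RBE, from AURKA at 0.54 ± 0.15 (edgeR adjusted p = 0.0044) to BUB1B at 1.29 ± 0.15 (edgeR adjusted p = 1.55e-06). The others called higher were CCNB1, CCNB2, CDC25C, CENPF, CDC20, ESPL1, TPX2, PRC1, NUSAP1, HMMR, TROAP, BIRC5, CDCA8 and MKI67, with CCNB1 the farthest at 1.44 ± 0.16 (edgeR adjusted p = 1.08e-06). The 5 called lower were CDC25B at -1.25 ± 0.11, CENPI at -1.15 ± 0.13, NDC80 at -0.87 ± 0.22, SPC25 at -0.76 ± 0.18 and FOXM1 at -0.42 ± 0.12. CDK1 was at 0.15 ± 0.23 and CCNA2 at -0.05 ± 0.13, and neither was called.

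Some of these calls between untreated lines depended on 1 library. CENPF (1.11 ± 0.43) was lost without library 1, 2 or 7 (edgeR adjusted p of 0.0533 to 0.101), TPX2 (0.32 ± 0.13) without 3 or 7 (0.0893 to 0.104) and HMMR (0.95 ± 0.36) without 2 (0.0882). PRC1 (0.61 ± 0.24) was lost without 1, 8 or 9 (0.0691 to 0.129) and FOXM1 without 2 or 8 (0.0652 to 0.102). Conversely, calls were gained for NUF2 without any of 3, 4, 5, 6, 8, 9 and 10 (log2 difference of 0.66 to 0.83), CENPA without 2 or 8 (0.51 to 0.58), TOP2A without 3 or 10 (0.73 to 0.91) and ANLN without 7 or 10 (-0.92 to -0.65). The same held for UBE2C without 2 or 6 (0.33 to 0.44), INCENP without 2 (0.35) and CDCA3 without 12 (0.35). All 7 were also called with every library under at least 1 other setting, as were BUB3 and MAD2L1, and fitting with no filter ended the calls of CENPF (0.129) and HMMR (0.115).

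With anlotinib the order of the mean levels in the lines changed for 29 of the 43 members, from higher to lower in RBE. The mean CPM was higher in RBE than in HCCC9810 for 32 of the 43 members in untreated cells and for 3 of the 43 in treated cells. These counts compare means only, and 20 of the 43 were called higher in RBE controls. The control ranges of some members overlapped, such as BUB3, SPC24 and INCENP, which were not called there. The share of all genes with such a change of order was not computed. The 3, named after their values were seen, were CDK1 at 39.4 ± 10.1 against 33.4 ± 2.79 CPM (mean ± SD, RBE first), CENPF at 169 ± 55.3 against 116 ± 37.9 CPM and TOP2A at 192 ± 58.4 against 119 ± 27.7 CPM. The treated lines were not tested against each other. On the per-length RPKM scale, the highest member in HCCC9810 controls was CDC25B at 80 ± 4.19, and TPX2 at 78.1 ± 16.1 and ANLN at 70 ± 28.1 did not differ from it beyond their spread. In treated HCCC9810 the highest were CDC20 at 193 ± 39, TPX2 at 128 ± 15.2, CCNB1 at 113 ± 17.1 and AURKA at 106 ± 15.1, of which each of the last 3 overlapped the next within 1 SD. In RBE, CDC20, CCNB1, TPX2 and TOP2A were at 149 ± 12.5, 111 ± 4.09, 104 ± 8.21 and 92.5 ± 24 in controls and at 93 ± 16, 70.8 ± 7.62, 61 ± 1.63 and 32.4 ± 11.2 with anlotinib. Neighbours overlapped within 1 SD for CCNB1, TPX2 and TOP2A in RBE controls and for CDC20 and CCNB1 in treated RBE, where TOP2A also overlapped BIRC5 (31.4 ± 0.925), AURKA (29.3 ± 1.87) and UBE2C (27.2 ± 2.19). PRC1 had the lowest RPKM of the 43 in all 4 groups, between 0.41 and 0.668 on average.

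**Figure D4:**
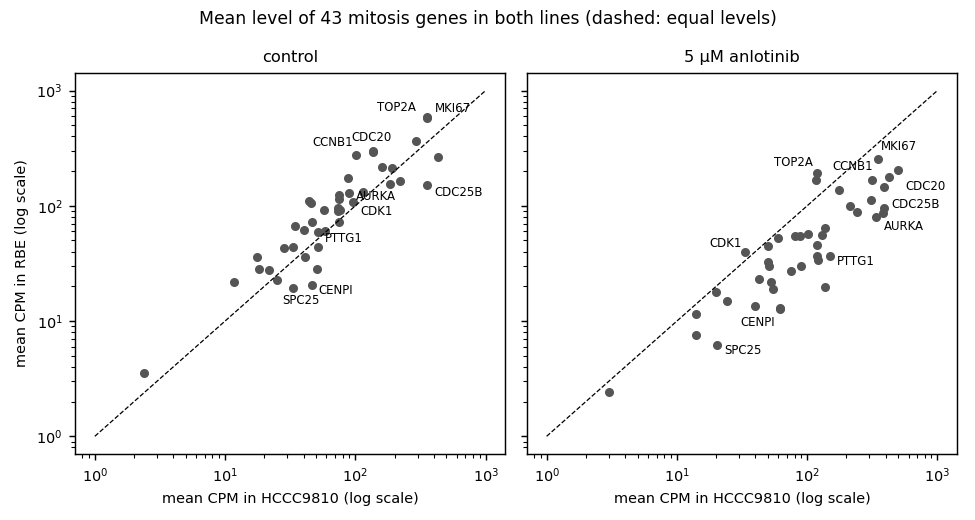
Mean CPM of each of the 43 members in HCCC9810 (horizontal axis, log scale) and RBE (vertical axis, log scale), for controls on the left and treated cells on the right, with a dashed line at equal levels. In controls 32 members lie above the line, and in treated cells 3 do.

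The base composition of the transcripts moved with the response in HCCC9810 and with the difference between lines, and less with the response in RBE. The members' GC content ran from 35.3% to 59.6% with a median of 44.4%, and its median was 48.5% for the 18 that rose in HCCC9810, 40% for the 5 that fell and 40.9% for the 20 that were not called. The ranges overlapped, at 39.4% to 59.3%, 37% to 59.6% and 35.3% to 59.3%. INCENP at 59.6% and UBE2C at 50% were among the 5 that fell. Across genes, which are not independent replicates, Spearman's rho between GC content and the HCCC9810 response was 0.296 over all 18035 genes and 0.357 over the 43 members. In RBE it was -0.0358 over all genes and -0.197 over the members, and for the difference -0.258 and -0.513. After offsets for GC content and transcript length were fitted in each library, rho fell to 0.00829 over all genes and 0.145 over the members in HCCC9810, and the difference had -0.0165 and -0.304. With these offsets, 23 members were higher in HCCC9810 (17.0% of all genes) and 4 lower (13.0% of all genes), 39 were lower in RBE (14.7% of all genes), and the difference was below 0 for 38 (15.2% of all genes). TTK, CENPI, PRC1, HMMR, ANLN and ECT2 were those gained for the difference (edgeR adjusted p of 0.00097 to 0.034), and PRC1, ANLN and ECT2 those gained in RBE. The 5 gained in HCCC9810 were NUF2 at 0.87, NDC80 at 0.52, DLGAP5 at 1.0, HMMR at 0.95 and ECT2 at 0.61, and SPC25 was lost there at -0.51 ± 0.20 (edgeR adjusted p = 0.0685). CDK1 and TOP2A still fell in HCCC9810, by 1.18 ± 0.13 and 1.19 ± 0.20 (edgeR adjusted p = 7.88e-06 and 0.000868), and their differences between lines, -0.25 ± 0.18 and -0.45 ± 0.28, were again not called. Over all genes the offsets moved the share of calls that were higher from 46.4% to 56.6% in HCCC9810 and from 53.8% to 40.3% for the difference. Without library 7, 18 members were higher and 5 lower in HCCC9810, 38 were lower in RBE and the difference was below 0 for 34. Leaving out library 6 as well gave the same counts. The part of base composition in the responses beyond these values was not tested.

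**Figure D5:**
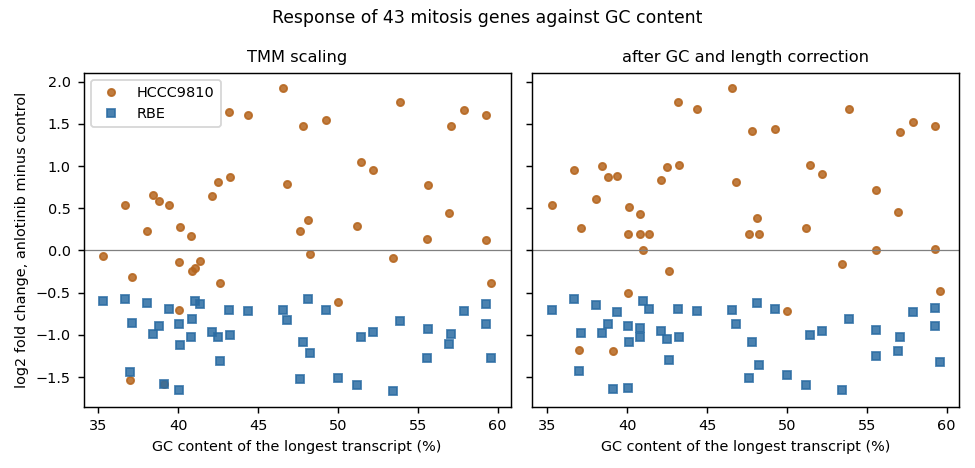
Log2 fold change with anlotinib (vertical axis) against the GC content of the longest transcript in percent (horizontal axis) for the 43 members in HCCC9810 (circles) and RBE (squares), with TMM scaling on the left and after offsets for GC content and length on the right. In HCCC9810 the AT-rich members sit lower on the left than on the right, and CDK1 and TOP2A move from -1.54 and -1.58 to -1.18 and -1.19.

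Other genes of the same pathways, in lists that hold no member, were set beside these responses. The counts are read against the shares of all genes, which were 11.1% higher and 12.8% lower in HCCC9810, 8.32% lower in RBE and 7.66% below 0 for the difference. Counts with GC and length offsets are read against larger shares. These were 17.0% higher and 13.0% lower in HCCC9810, 14.7% lower in RBE and 15.2% below 0 for the difference. Of 20 other spindle, centrosome and cytokinesis genes, 9 rose and 1 fell in HCCC9810 and 11 fell in RBE, and the difference was called below 0 for 12 (15 higher, 1 lower, 17 lower in RBE and 16 with GC and length offsets). Those with the smallest p in HCCC9810 were KNSTRN at 1.20, PSRC1 at 1.45 and SPAG5 at 1.14, all mitotic spindle proteins, and HAUS1 of the augmin complex fell by 0.52. In RBE the smallest p belonged to RACGAP1, SPAG5 and CDCA2, at -0.88, -0.86 and -0.99. Of 34 other centromere, kinetochore and checkpoint genes, 6 rose and 6 fell in HCCC9810 and 23 fell in RBE, with the difference below 0 for 15. The HCCC9810 counts are not far above the shares of all genes (11.1% and 12.8%). With the offsets 8 were higher and 5 lower in HCCC9810, 31 lower in RBE and 23 below 0 for the difference. The CENPA loading factors HJURP (0.59) and OIP5 (0.62) and the centromere protein CENPW (0.83) rose in HCCC9810, while CENPC (-1.70), CENPQ (-1.32) and DSN1 (-0.84), proteins of the inner kinetochore and of the layer that links it to the NDC80 complex, fell there. In RBE, SKA1, SKA3 and CENPN fell, by 1.43, 1.08 and 1.04.

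Among 17 APC/C core subunits and regulators, 3 rose and 2 fell in HCCC9810, 4 fell in RBE, and the difference was below 0 for 7 and above 0 for 1. The HCCC9810 counts are near the shares of all genes (11.1% and 12.8%). GC and length offsets made them 8 higher and 2 lower, with 7 lower in RBE and 11 below 0 for the difference. The shares of all genes were then 17.0%, 13.0%, 14.7% and 15.2%. UBE2S, the ubiquitin carrier that extends the chains begun by UBE2C, rose by 1.18 ± 0.21 in HCCC9810 (edgeR adjusted p = 0.00172) where UBE2C fell, and ANAPC7 and ANAPC16 rose by 0.32 and 0.29. FBXO5 (EMI1, an APC/C inhibitor of S and G2) fell in both lines, by 1.69 and 1.38, and ANAPC13 fell in HCCC9810 by 0.45, with FZR1 (CDH1, the APC/C activator of G1) and ANAPC15 lower in RBE at -0.74 and -0.53. Of 12 CDK1 regulators, 3 rose and 1 fell in HCCC9810 and 6 fell in RBE, with the difference below 0 for 5 (4 higher and 3 lower in HCCC9810, 8 lower in RBE and 7 with the offsets). CKS2, a CDK-binding subunit, rose by 1.89 ± 0.19 (edgeR adjusted p = 1.47e-05), BORA, the activator of AURKA towards PLK1, by 1.46, and GTSE1 by 1.06, and the inhibitory kinase WEE1 fell by 0.60. In RBE, CCNF, GTSE1 and PKMYT1 fell by 1.49, 1.11 and 1.05. Of 14 genes of DREAM, MuvB, B-MYB and NF-Y, 2 rose and 2 fell in HCCC9810, 3 fell in RBE and the difference was below 0 for 3, of which the HCCC9810 counts are near the shares of all genes (4 higher and 1 lower with the offsets, and 5 lower in RBE). MYBL2 (B-MYB) changed by 0.48 in HCCC9810 and -1.10 in RBE, E2F4 by 0.39 in HCCC9810, RBL1 (p107) by -1.19 and -0.81, RBBP4 by -0.35 in HCCC9810, and TFDP1 by -0.47 in RBE.

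Of 17 condensin and cohesin genes, which shape chromosomes and hold sisters together, 2 fell in HCCC9810 (NCAPH at -0.53 and PDS5B at -0.97) and 8 in RBE, where NCAPH at -1.18, NCAPD2 at -1.08 and CDCA5 at -1.15 had the smallest p, and the difference was below 0 for 7. The 2 in HCCC9810 are near the share of all genes (12.8%). Of all genes, 8.32% were called lower in RBE and 7.66% below 0 for the difference. With GC and length offsets 13 fell in RBE and the difference was below 0 for 11, beside 14.7% and 15.2% of all genes. In HCCC9810 both edgeR and DESeq2 called 0 of the 17 higher, and edgeR gave 1 at an unadjusted p below 0.05. With GC and length offsets 4 were called higher, beside 17.0% of all genes. The 28 DNA replication and G1/S genes either fell or were not called in both lines. In HCCC9810 15 fell, with CCNE2 (cyclin E2) at -2.23, PRIM1 at -1.44 and CDC6 at -0.99, and in RBE 27 fell, among them RRM2 at -1.28 and RRM1 at -0.94. Of all genes, 12.8% and 8.32% were called lower in the 2 lines, and 11.1% and 9.37% higher. In both lines 0 of the 28 were higher, whether called by edgeR, called by DESeq2 or at an unadjusted p below 0.05. The median log2 fold change of this list was -0.50 in HCCC9810 and -0.79 in RBE. The difference was below 0 for 7 genes, beside 7.66% of all genes, and above 0 for 2, near the 8.92% of all genes. With the offsets 19 fell in HCCC9810 and 27 in RBE, beside 13.0% and 14.7% of all genes. The difference was then below 0 for 11, beside 15.2%, and above 0 for 1, where 1848 of all 18035 genes were. Thus CDK1 and TOP2A, at -1.54 and -1.58 in HCCC9810, had the sign of the replication and G1/S genes that fell there. CCNB1, AURKA and CDC20 had the opposite sign.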

How the data were processed

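Total RNA of 12 cultures was sequenced (Illumina, paired ends). The authors deposited whole-number counts per gene, and also RPKM values, which matched the count over a fixed gene length and the column total within 0.039%. HISAT2 and GRCh38 are named per the submitters' processing notes, and the counter, annotation, versions and strand setting are not given in the sources used here. Members and all gene lists were chosen with earlier results of these data known.

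The deposited counts were tested in edgeR 4.0.16 (R 4.3.3). Genes passed edgeR's expression filter on the 4 groups (minimum count 10), libraries were scaled by TMM, and a quasi-likelihood model with 4 group means and robust spread was fitted to all 12 libraries and 18035 genes. Two-sided F-tests compared anlotinib with control in each line, the responses of the lines (interaction) and the controls. P-values were adjusted by Benjamini-Hochberg over all genes tested. The SE is the size of the log2 fold change divided by the square root of F. For the SE, that fold change lacks the small count edgeR adds for the reported values. CPM are counts scaled to the TMM-normalised library size, given as mean ± SD with n = 3, except the marker sums, which use library totals. Depth was at least 15215193 counts in a library. Replicate pairs differed by more than counting noise (chi-square per degree of freedom of 3.48 to 43.4), so none was merged. P-values measure the spread between these cultures of single lines.

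All 58216 identifiers matched GENCODE 29, which gave coordinates, lengths, GC content and exon overlaps. Overlaps above 10% are given, since reads could be counted for either gene. The procedure was run on simulated counts with 200 changed genes and no shift with GC content, so that run does not bear on such shifts. Alternatives were RLE factors, library totals, DESeq2 1.42.0, no filter, a minimum count of 50, limma 3.58.1 on log2(RPKM + 1) and log2(RPKM + 0.1), 6 libraries alone, offsets from splines of GC content and log length (5 degrees of freedom), each library left out, and libraries 6 and 7 left out. All 43 members are named. Values in every library are given for CCNB1, CDK1, AURKA, TOP2A and MKI67, for the 2 members per group of roles with the smallest p for the difference, and for members called in opposite directions, and UBE2C, INCENP and ASPM (in part) were added after their values were seen. From other lists, up to 3 called genes per direction and line are named, by smallest p, except 1 that is not reported here.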

Additional observations from a re-analysis of the deposited data

Results flagged for a closer look

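The response to anlotinib differed between the lines for 32 members by the test of the interaction of line and treatment (edgeR, adjusted p below 0.05). Of all genes tested, 7.66% were called below 0 for this difference. The values below are the log2 response in RBE minus that in HCCC9810, and all are below 0. Among the cyclins and CDC25 phosphatases, the difference was called for CCNB1 at -2.34, CCNB2 at -2.31, CDC25C at -1.75, CCNA2 at -1.63 and CDC25B at -0.76. For the mitotic and checkpoint kinases, the difference was called for AURKA at -2.62, PLK1 at -2.46, BUB1B at -1.87, BUB1 at -1.84 and AURKB at -1.40. Of the centromere and kinetochore proteins, the difference was called for CENPA at -2.57, SPC24 at -1.58, NUF2 at -1.48, NDC80 at -1.40, MAD2L1 at -1.23, SPC25 at -0.95 and BUB3 at -0.51. In the APC/C switch, the difference was called for CDC20 at -2.38, PTTG1 at -2.25, ESPL1 at -1.55 and UBE2C at -0.90. Among the spindle proteins, the difference was called for TROAP at -2.48, DLGAP5 at -1.66, TPX2 at -1.62 and NUSAP1 at -0.94. For the chromosomal passenger subunits, the difference was called for CDCA8 at -2.07, BIRC5 at -1.92 and INCENP at -0.90. Of the remaining members, the difference was called for PIMREG at -2.60, CDCA3 at -1.89, FOXM1 at -1.70 and MKI67 at -1.17. The 11 members for which the difference was not called were CDK1, TTK, CENPE, CENPF, CENPI, PRC1, ASPM, HMMR, ANLN, ECT2 and TOP2A, of which TTK, CENPI, PRC1, HMMR, ANLN and ECT2 were called after GC and length correction (edgeR adjusted p of 0.00097 to 0.034). Groups of 3 libraries were too small for a test of outlying samples.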

How the results depend on the processing

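No paired analysis was possible because the groups compared share no replicate numbers in the labels. Of 3741 values of members under the 22 alternatives, 3568 kept their side of the threshold, 86 passed the threshold only under the alternative and 87 only in the reported fit. No called value changed sign, and among the 3568 there were 66 that were not called in either fit and had opposite signs. No count over all 43 members moved by more than 1.5 times, whereas GC and length correction moved counts of smaller groups further, as given beside them. With a single library left out, members called higher in HCCC9810 numbered 17 to 19 and lower 4 to 6, lower in RBE 33 to 38, below 0 for the difference 29 to 34, and between untreated lines 18 to 22 higher and 4 to 6 lower. Under the other settings these were 17 to 23, 4 to 5, 33 to 39, 29 to 38, 18 to 25 and 5 to 7. Calls held under every alternative for 20 of 23 members in HCCC9810, 32 of 36 in RBE, 28 of 32 for the difference and 20 of 25 between untreated lines. Scaling by library totals moved the median log2 difference of all genes by 0.13, to 0.22, and the share of calls above 0 from 53.8% to 65.7%, and the members' median difference was then -1.33. It ended the difference calls of NUF2, SPC25 and DLGAP5 (edgeR adjusted p = 0.0514, 0.0529 and 0.0523). PRC1, at 1.83 to 3.76 CPM, had the lowest counts, and the precision of all values is limited by 3 libraries in each group.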
